A study of Danio rerio with 16 samples.

Results

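The change in microRNA (miRNA) levels between 48 and 96 hours post-fertilization (hpf) was followed in zebrafish embryos kept in valproic acid (VPA), a drug for epilepsy that inhibits histone deacetylases and is a known teratogen. The comparison rests on 8 of the 16 arrays of the series, chosen by their titles, namely 4 arrays of VPA embryos at 96 hpf and 4 arrays of VPA embryos at 48 hpf. Both groups were wild-type embryos of the TL strain that had been exposed to VPA since 4 hpf, so the later group had also been exposed for longer. The other 8 arrays, of embryos kept in the ethanol vehicle over the same times, served only to ask where development under VPA differed from development in vehicle. The labels give no dose, the RNA is from whole embryos, and nothing says that replicates came from separate clutches, so that the p-values reflect only how far the hybridized samples differ, which may be technical. All 96 hpf arrays lie on 1 slide and all 48 hpf arrays on another, so that age and slide cannot be told apart for any value of VPA embryos alone.

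A miRNA is cut from a hairpin transcript, and the mature strand guides a silencing complex to messenger RNAs that carry a match to bases near its 5′ end. Many miRNAs are transcribed together from clusters, and many are restricted to a tissue, so that a profile of a whole embryo follows both the clearance of early miRNAs and the growth and maturation of organs. In zebrafish, miR-430 is made at the onset of zygotic transcription and clears maternal messenger RNAs. Between the ages compared here, the liver and gut differentiate, the cartilages of the jaw and skull form, and the retina and ear mature.

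Each miRNA is read by probes that are complementary to the 3′ part of its mature strand, and the probe sequences are shown because close relatives share part of them and could share signal. The sets with the largest or most uniform changes are given below, 5′ to 3′ as in the array design. Of the miR-430 family, the run shared by all 4 probes is in capitals.
miR-430a: cTACCCCAAcaaatagc
miR-430b: cTACCCCAActtgatagc
miR-430c: cTACCCCAAagagaagc
miR-430j: TACCCCAAtttgatagca
These probes differ over the bases that follow the shared run, and the design gives no single position for them.

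For the let-7 family, capitals mark each base that differs from the let-7a probe at the same position from the 5′ end.
let-7a: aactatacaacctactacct
let-7b: aacCaCacaacctactacc
let-7c: aacCatacaacctactacc
let-7d: aacCatacaaccAactacc
let-7e: aactatTcaaTctactacctca
let-7f: aactatacaaTctactacctc
let-7g: aactatacaaActactacctca
let-7i: aacAGCacaaActactacctc
The let-7c, let-7f and let-7g probes differ from the let-7a probe at 1 base and the let-7i probe at 4, so the values of single let-7 members are uncertain where the array could split or share them.

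The probes of miR-192, miR-194a and miR-122 are shown because these miRNAs of the gut and liver had some of the largest rises, and no part is in capitals.
miR-192: ggctgtcaattcataggtc
miR-194a: ccacatggagttgct
miR-122: caaacaccattgtcacact
On danRer6 (Zv8), the build of the array design, the miR-194a probe lies at chr10:22538200-22538213 and the miR-192 probe at chr10:22538377-22538394, both on the plus strand, and the miR-122 probe at chr21:8712776-8712793 on the minus strand. The spans of the design are 1 base shorter than the probes.

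For 3 more sets, capitals mark the longest run that the probes share. The first is miR-132 and miR-212, relatives expressed in neurons, the second is miR-182 and miR-183 of the sensory miR-183 cluster, and the third is the miR-19 members of the miR-17/miR-92 clusters.
miR-132: cgaccatggCTGTAGA
miR-212: agccatgaCTGTAGAct
miR-182: tgtgagTTCTACCAttgc
miR-183: cagtgaaTTCTACCAgtg
miR-19a: tcAGTTTTGCATagatttgca
miR-19b: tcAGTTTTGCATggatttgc
miR-19c: cgAGTTTTGCATggat
miR-19d: tcAGTTTTGCATgggtt
The miR-183 probe lies at chr4:14884996-14885012 and the miR-182 probe at chr4:14886082-14886098, both on the plus strand, the miR-19a and miR-19b probes lie on the plus strand at chr8:45338117-45338136 and chr8:45338486-45338504, and the miR-19c probe lies on the minus strand at chr14:32739701-32739715.

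The arrays differed in brightness. The 75th percentile of spot intensity was 1249, 1465, 3415 and 6179 on the 96 hpf arrays of replicates 1 to 4, against 730, 522, 507 and 2356 on the 48 hpf arrays. Mean log2 brightness was 11.28 ± 1.08 at 96 hpf and 9.68 ± 1.04 at 48 hpf (SD, n = 4 each), and the exact two-sided permutation test gave p = 0.0857, where 4 against 4 can reach 0.0286. Zebrafish miRNAs detected on the arrays, meaning that over 50% of the spots of a probe were well above background, numbered 169, 170, 192 and 189 at 96 hpf, against 141, 135, 130 and 164 at 48 hpf, which do not overlap (exact two-sided permutation p = 0.0286, the smallest this design can give, n = 4 each). The 96 hpf arrays of replicates 1 and 2 detected more miRNAs than the 48 hpf array of replicate 4 although that array was brighter. Saturated spots numbered 189 on the 96 hpf array of replicate 4, 15 on that of replicate 3 and 23 on the 48 hpf array of replicate 4. The number of arrays limits the precision of every value.

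**Figure D1:**
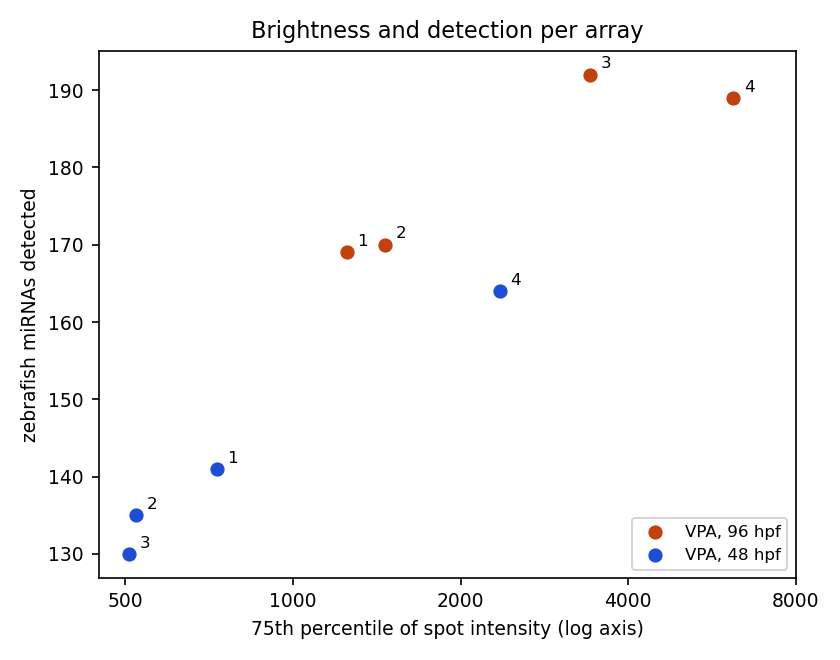
Each point is 1 array of VPA embryos, labelled by its replicate number, with the 75th percentile of spot intensity on a log axis and the number of zebrafish miRNAs detected. The 4 arrays at 96 hpf detected 169 to 192 miRNAs and the 4 arrays at 48 hpf 130 to 164.

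Intensities were divided by each array's 75th percentile and are given on the log2 scale, so that 0 is that percentile, and changes are 96 hpf minus 48 hpf, with their standard error (SE, n = 4 arrays each). The array reads 245 zebrafish miRNAs, of which 172 were detected on at least 3 of 4 arrays of either age and were tested, and 128 of them changed, which is 74.4% (limma, Benjamini-Hochberg adjusted p under 0.05). With array brightness as a covariate 110 were called. At 96 hpf 71 were higher (41.3% of those tested) and 57 were lower (33.1%). The changes were at least 2-fold for 24 of the higher and 14 of the lower miRNAs and at least 4-fold for 5 and 4. The median fold was 1.65 among the higher and 1.66 among the lower miRNAs, and the median change over all 172 was 0.04. Arrays of the 2 ages did not overlap for 66 higher and 57 lower miRNAs, 71.5% of those tested, and 120 of these were called. A miRNA is read by 2 to 4 probes, and in 106 called miRNAs with a second probe that could be compared the sign was the same for 105, the exception being miR-217.

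The balance of the calls differed with detection. Among 135 miRNAs detected on at least 3 arrays at both ages, 45 were higher and 54 lower at 96 hpf. Another 23 were detected on 1 or 2 arrays of one age and at least 3 of the other, of which 14 were higher and 3 lower, and 14 appeared, as described further on. These passed the filter through the arrays of 1 age, and where that is the age at which they are high, their direction follows in part from the filter. It was not so for all of them. miR-196b was detected on 4 of 4 arrays at 96 hpf and 1 of 4 at 48 hpf but was lower at 96 hpf (-0.53). With the signals of the scanner software's own probe summary in place of the processed spot intensity, the calls were 82 higher and 36 lower, and with another background correction (normexp) 24 higher and 29 lower. With no scaling between arrays they were 76 higher and 4 lower, with a median change of 1.52 over all miRNAs, so every direction given here is relative to the bulk of the miRNAs on the array.

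The miR-430 family had the largest falls. All 4 tested members were lower at 96 hpf, with a median change of -3.55, and they were also lower under every scaling tried. miR-430b stood at -0.26, -0.30, -0.18 and 0.24 on the 96 hpf arrays of VPA embryos, against 3.48, 3.41, 3.67 and 3.45 on the 48 hpf arrays. The 4 arrays at 48 hpf lie far above those at 96 hpf, and the change was -3.63 ± 0.13, or 12.4-fold lower (adjusted p = 1.40e-08). miR-430a stood at -0.12, -0.23, -0.27 and -0.23 at 96 hpf, against 3.29, 3.28, 3.20 and 3.25 at 48 hpf, with arrays of 1 age close together, and was 11.1-fold lower (adjusted p = 2.98e-10). miR-430j was 13.6-fold lower, the largest fold of the comparison, and miR-430c 10.7-fold lower. All 4 were still detected on at least 3 arrays at 96 hpf.

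**Figure D2:**
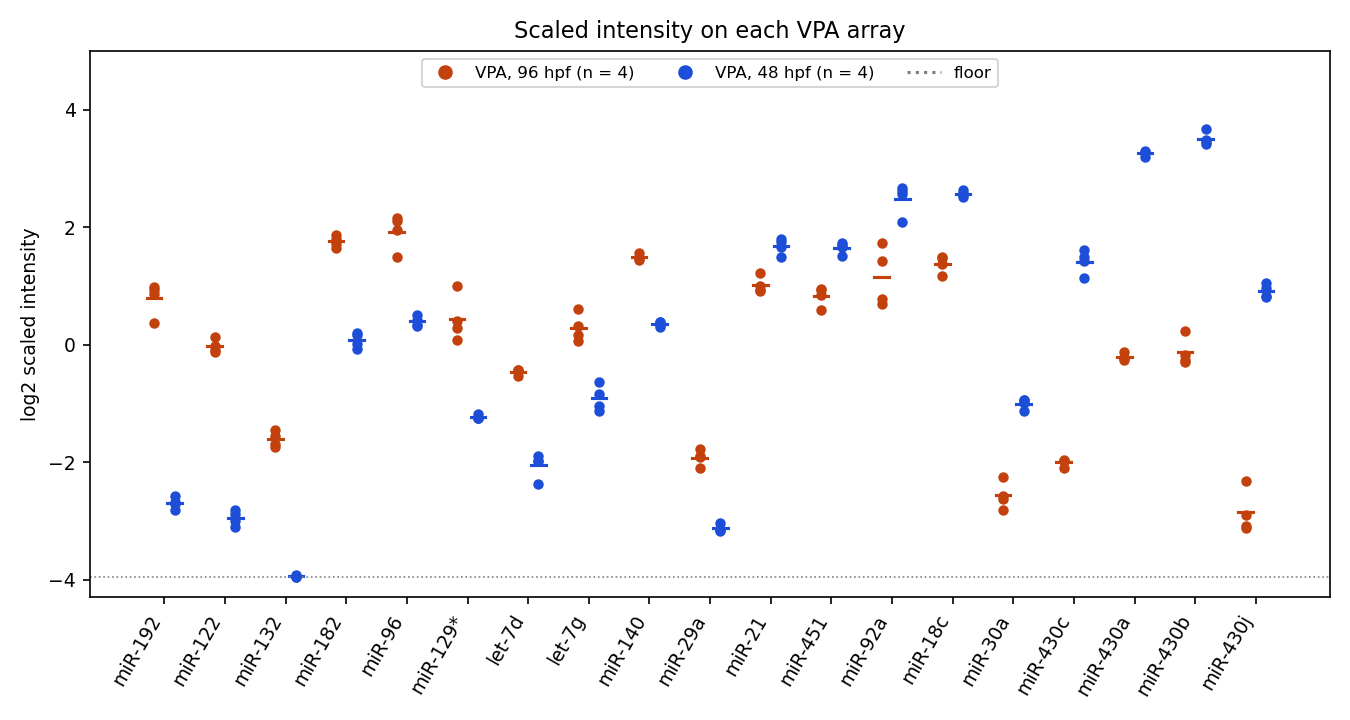
Log2 scaled intensity of selected miRNAs on each array of VPA embryos at 96 hpf (left in each pair) and 48 hpf (right); points are arrays, short lines the means of 4 arrays, and the dotted line is the floor at -3.95. miR-192, miR-122 and miR-132 lie higher at 96 hpf on all arrays, and the 4 miR-430 members lie lower.

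The miR-17/miR-92 clusters encode miRNAs that promote proliferation and are abundant in dividing progenitors. All 15 tested members were lower at 96 hpf, with a median change of -0.90, and 14 of them were detected at both ages. The direction of the median held under the other scalings but not with no scaling, where it was 0.70, below the median of 1.52 over all miRNAs. Quantile normalization called 13 of the 15 lower and normexp 10. miR-20b stood at 0.27, 0.01, 0.15 and 0.03 at 96 hpf, against 1.38, 1.30, 1.45 and 1.28 at 48 hpf, and was 2.35-fold lower (change -1.23 ± 0.08, adjusted p = 1.39e-06). miR-92a had the largest change of the family at -1.33 ± 0.24. Its values were 1.73, 1.41, 0.77 and 0.69 at 96 hpf, against 2.66, 2.62, 2.57 and 2.09 at 48 hpf, and they do not overlap. With array brightness as a covariate its change was -0.78. miR-18c was 2.29-fold lower and miR-363 2.26-fold lower, while miR-93 had the smallest change of the family, -0.47 ± 0.07.

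The miR-15/16 family, which restrains the cell cycle, was also lower for all 7 tested members, with a median change of -0.49 (1.11 with no scaling). Fewer of the 7 were called lower under other settings. These were 5 with quantile normalization, 4 with the percentile over probes detected on all arrays, 3 with the scanner software's own probe summary and 3 with normexp. miR-15b stood at 0.02, -0.01, 0.11 and 0.23 at 96 hpf, against 0.93, 0.93, 0.95 and 1.06 at 48 hpf, and was 1.84-fold lower (adjusted p = 8.79e-06). miR-16a was 1.77-fold lower, miR-15a 1.44-fold and miR-457a 1.41-fold.

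The let-7 family, which accumulates as cells leave the progenitor state, moved the other way. All 8 tested members were higher at 96 hpf, with a median change of 0.82, and the median was positive under every scaling and background correction tried. Of the 8, 5 were detected on at least 3 arrays at both ages, and all 5 were higher. let-7e and let-7i passed the filter through the 96 hpf arrays, so their direction follows in part from the filter. let-7b also passed it through the arrays of 1 age. Quantile normalization called 6 of the 8 higher and normexp 3. let-7d stood at -0.44, -0.44, -0.54 and -0.46 at 96 hpf, against -1.98, -1.98, -2.38 and -1.90 at 48 hpf, and the ages do not overlap. It was 3.01-fold higher (change 1.59 ± 0.11, adjusted p = 1.39e-06), but under normexp its change of 0.75 did not pass (limma adjusted p = 0.0688). let-7g was 2.30-fold higher, let-7f 2.04-fold and let-7a 1.90-fold, while let-7e and let-7i were below background on all 48 hpf arrays and their fitted changes turned negative under normexp, to -0.63 and -0.78. Because the let-7 probes are as alike as shown above, the uniform rise cannot be assigned to each member.

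The miRNAs of the gut and liver had the largest rises of the comparison. miR-192, expressed in the gut and liver epithelium, stood at 0.98, 0.93, 0.87 and 0.37 at 96 hpf, against -2.68, -2.58, -2.72 and -2.81 at 48 hpf, and was 11.2-fold higher (change 3.48 ± 0.14, adjusted p = 2.71e-08). miR-122, the main miRNA of hepatocytes, stood at -0.02, -0.12, -0.10 and 0.13 at 96 hpf, against -3.01, -2.89, -3.10 and -2.82 at 48 hpf, where it was detected on 2 of 4 arrays, and was 7.60-fold higher (adjusted p = 8.47e-09). In both cases all 96 hpf arrays lie above all 48 hpf arrays. miR-194a, which shares a hairpin cluster with miR-192, was below background on every 48 hpf array and was at least 1.87-fold higher (adjusted p = 3.92e-07). Its 48 hpf values all lay at the floor, and under normexp its change of 0.26 did not pass (limma adjusted p = 0.716). In whole embryos, more cells of a type and more RNA per cell cannot be told apart.

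The pancreatic members of the same list were lower or did not pass. miR-217 was 1.37-fold lower at 96 hpf (change -0.46 ± 0.08, adjusted p = 0.000855), although its second probe gave 0.04, and miR-216b was 1.32-fold lower. miR-216a had a difference of -0.21 ± 0.12, which did not pass. Of the 8 list members on the array, 6 were tested, with 3 higher, 2 lower and a median change of 0.77. With the scanner software's own probe summary and with normexp 0 were called lower. Quantile normalization and the percentile over probes detected on all arrays each called 1 lower. The shares over all tested miRNAs were 41.3% higher and 33.1% lower. miR-375 of the endocrine pancreas was not detected well enough to be tested.

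The cartilage and mesenchyme list held 6 miRNAs detected at both ages and 3 that appeared. All 9 were higher at 96 hpf, with a median change of 0.80, and the median was positive under every scaling and background correction tried. The 3 that appeared passed the filter through the 96 hpf arrays, so their direction follows in part from the filter. The 6 detected at both ages were all higher. Under normexp 6 of the 9 were called higher, and the changes of miR-145, miR-455 and miR-455b, the 3 that appeared, turned to -0.70, -0.47 and -0.48. miR-140, the main miRNA of chondrocytes, stood at 1.48, 1.49, 1.55 and 1.43 at 96 hpf, against 0.33, 0.38, 0.38 and 0.29 at 48 hpf, and was 2.21-fold higher (change 1.14 ± 0.06, adjusted p = 3.78e-07). Its opposite arm miR-140* was 2.50-fold higher. The vascular smooth-muscle miRNA miR-143 was 1.74-fold higher, miR-214 1.51-fold, and miR-199 and miR-199*, arms of a hairpin expressed in mesenchyme, 1.36-fold and 1.41-fold.

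In the sensory list 5 of 6 tested members were higher and 1 was lower, with a median change of 1.11. Over all tested miRNAs 41.3% were higher and 33.1% lower. Under normexp 2 of the 6 were called higher. The miR-183 cluster, expressed in hair cells and photoreceptors, supplied 4 of the 5 higher members. Of these, miR-182 and miR-182* are arms of 1 hairpin. miR-182* was detected on 1 of 4 arrays at 48 hpf, so its direction follows in part from the filter. Its change turned to -0.36 under normexp. miR-182 stood at 1.87, 1.80, 1.71 and 1.65 at 96 hpf, against 0.19, 0.16, -0.07 and 0.00 at 48 hpf, and was 3.22-fold higher (change 1.69 ± 0.09, adjusted p = 2.07e-07). miR-96 was 2.89-fold higher, its lowest 96 hpf array being that of replicate 4. miR-183 was 2.48-fold higher (adjusted p = 0.00421), with a wider spread of 0.81, 0.60, 0.14 and -0.62 at 96 hpf, against -0.99, -0.66, -1.05 and -1.61 at 48 hpf. miR-204 of the eye and its pigmented epithelium changed by 0.29 ± 0.08, and miR-184, expressed in the lens and cornea, was lower by 0.28.

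The neuronal list held 18 tested members of 22 on the array. Of these, 11 were higher and 4 lower, beside 41.3% higher and 33.1% lower over all tested miRNAs. The median change was 0.59 and turned to -0.10 under normexp. Of the list members detected at both ages 6 were higher and 4 lower. miR-129* stood at 0.28, 0.39, 0.07 and 0.99 at 96 hpf, against -1.25, -1.18, -1.25 and -1.24 at 48 hpf, and was 3.17-fold higher (adjusted p = 3.08e-05). miR-138, which limits dendritic spine growth in mammals, was 2.17-fold higher, and miR-135c 2.65-fold. miR-124, a miRNA of differentiated neurons, was higher by 0.28 ± 0.10 (adjusted p = 0.0271). Among the lower members, miR-219, which promotes oligodendrocyte differentiation, fell by 1.28 (adjusted p = 0.000319), and miR-9, expressed in neural progenitors, fell by 0.85. Spots of miR-9 were saturated on 3 arrays, those of replicates 3 and 4 at 96 hpf and of replicate 4 at 48 hpf. Its level there is a minimum, so the size of its fall is uncertain.

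**Figure D3:**
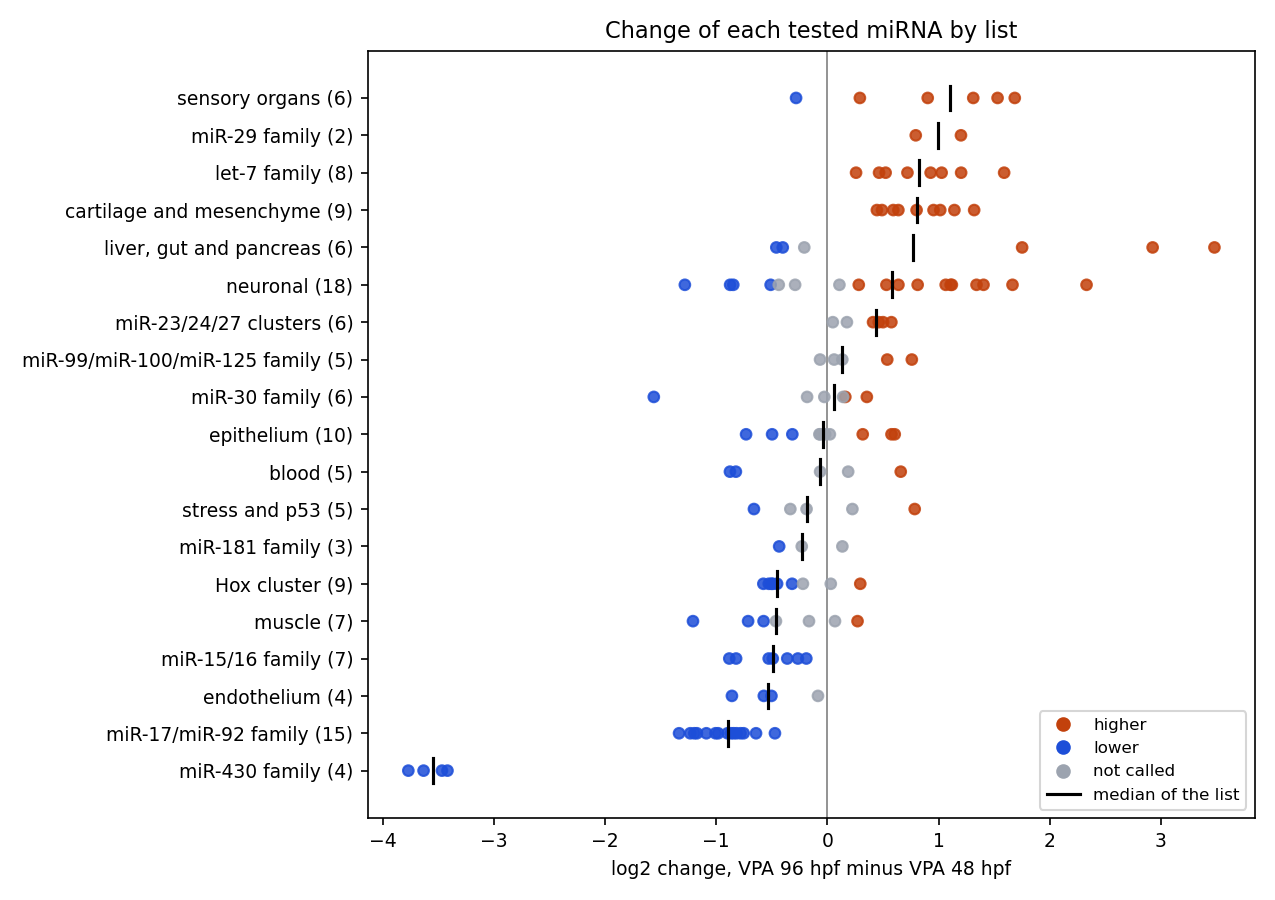
Each point is 1 tested miRNA, placed by its log2 change between 96 and 48 hpf in VPA embryos and coloured by whether it was higher, lower or not called, and black lines are list medians, with the number of tested miRNAs in brackets. The miR-430 list lies near -3.55 and the miR-17/miR-92 list near -0.90, while all let-7 and all cartilage miRNAs lie above 0. Of these, 5 let-7 and 6 cartilage miRNAs were detected on at least 3 arrays at both ages. Over all tested miRNAs 41.3% were higher and 33.1% lower.

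Muscle, blood, vessel and skin miRNAs gave smaller or mixed changes. In muscle 3 of 7 tested members were lower and 1 higher, with a median of -0.46 (0.05 under quantile normalization). Over all tested miRNAs 33.1% were lower and 41.3% higher. miR-133c was 2.31-fold lower, with -1.41, -1.44, -1.52 and -0.72 at 96 hpf, against -0.09, -0.05, 0.04 and -0.16 at 48 hpf. miR-133b was 1.49-fold lower and had a difference of 0.05 with quantile normalization. miR-206, of slow and fast skeletal muscle, missed the threshold (change -0.46 ± 0.19, adjusted p = 0.0538), and some of its spots were saturated on 2 VPA arrays. It passed without the 96 hpf array of replicate 1, 2 or 4, at -0.58, -0.54 and -0.26, and its difference was 0.23 under quantile normalization. For miR-1 the difference was 0.07 ± 0.24. In red cells, miR-451 stood at 0.84, 0.93, 0.94 and 0.59 at 96 hpf, against 1.499, 1.69, 1.74 and 1.66 at 48 hpf, and was 1.77-fold lower, as was its neighbour miR-144 at 1.84-fold (adjusted p = 0.0262). The miR-144 change was -0.54 without the 96 hpf array of replicate 4 and lost its call without the 48 hpf array of replicate 2, 3 or 4 (adjusted p = 0.065, 0.068 and 0.051). It was also lost with no filter (limma adjusted p = 0.085) and with the total signal (0.079). With array brightness as a covariate the miR-144 change was -0.46 and did not pass (limma adjusted p = 0.293). miR-142a-3p of white cells had a difference of 0.19 ± 0.21 that did not pass, and passed at 0.43 without the 96 hpf array of replicate 4, while miR-146a of the immune system was higher by 0.66 ± 0.17 but was detected on 1 of 4 arrays at 48 hpf, and its change was -0.74 under normexp. The blood list held 5 tested members of 10 on the array, 1 higher and 2 lower.

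Endothelial miRNAs were lower for 3 of 4 members (median -0.54, or 1.06 with no scaling), namely miR-222 (1.81-fold), miR-221 (1.42-fold) and miR-126* (1.49-fold), the passenger arm of miR-126, whose own difference of -0.08 ± 0.07 did not pass. The miR-126* call was lost with the percentile over probes detected on all arrays (adjusted p = 0.054), the mean of all probes (0.051), no filter (0.052), the total signal (0.143) and array brightness as a covariate (0.125). Of the skin miRNAs, miR-205 was 1.66-fold lower (a change of -0.06 under quantile normalization) and miR-203a 1.41-fold lower, whereas miR-200c and miR-141, which maintain the epithelial state, were 1.52-fold and 1.49-fold higher. The epithelial list held 3 higher, 3 lower and 4 uncalled miRNAs, beside 41.3% higher and 33.1% lower over all tested miRNAs. On the 96 hpf array of replicate 4, miR-205, miR-133b, miR-206 and miR-125b all read 3.40, at the scanner's ceiling, so their level on that array is a minimum. Spots of miR-19b, miR-199 and miR-204 were also saturated on 1 or 2 VPA arrays.

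Of the Hox-cluster miRNAs, which lie among the Hox genes and repress some of them, 6 of 9 tested members were lower and 1 higher. The shares over all tested miRNAs were 33.1% lower and 41.3% higher. The median was -0.45 (1.11 with no scaling). Of 5 members detected at both ages 4 were lower. With the total signal 3 list members were lower and 2 higher, and with normexp 3 were lower. miR-10c was 1.42-fold lower, with 0.08, 0.15, 0.11 and 0.18 at 96 hpf, against 0.72, 0.61, 0.58 and 0.61 at 48 hpf, and miR-196a 1.41-fold lower. The 1 member higher at 96 hpf was miR-10d*, with a change of 0.30 ± 0.08, near the floor, which turned to -0.96 under normexp. The largest fall outside the miR-430 family was that of miR-30a, which stood at -2.63, -2.58, -2.81 and -2.25 at 96 hpf, against -0.95, -0.95, -0.999 and -1.12 at 48 hpf, and was 2.95-fold lower (adjusted p = 2.98e-06). Of its relatives, miR-30c was 1.28-fold higher and miR-30d had a difference of -0.18 ± 0.12, which did not pass, but did without the 96 hpf array of replicate 4 (-0.28). miR-29a and miR-29b, which repress collagen genes, were higher by 1.20 ± 0.08 and 0.80 ± 0.12, with changes that turned to -0.07 and -0.63 under normexp. Each was detected on 1 of 4 arrays at 48 hpf, and was not well above background on the other three. Of the miR-23, miR-24 and miR-27 clusters 4 of 6 were higher, beside 41.3% over all tested miRNAs, and 1 was called higher under normexp. miR-27b was higher by 1.49-fold (a change of -0.40 under normexp) and miR-23a by 1.42-fold.

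Of 5 tested members of the miR-99, miR-100 and miR-125 families 2 were higher, miR-125a by 1.69-fold and miR-125b by 1.45-fold. Of the miR-181 family 1 of 3 was lower, miR-181a* by 1.35-fold. These counts are near the shares over all tested miRNAs, 41.3% higher and 33.1% lower. Of the stress and p53 list, miR-34, a target of p53, was 1.72-fold higher and miR-21, which is induced in injury, was 1.58-fold lower, with 3 of 5 uncalled. The calls of miR-34 and miR-21 were lost under normexp (changes 0.47 and -0.38, limma adjusted p = 0.0813 and 0.117). miR-338, a brain miRNA, was among the largest rises, at 1.11, 1.27, 1.16 and 1.38 at 96 hpf, against -0.20, -0.17, -0.28 and -0.42 at 48 hpf, and was 2.82-fold higher (adjusted p = 5.49e-07). Outside the lists, miR-724, singled out after its values were seen, stood at -1.31, -1.42, -1.40 and -1.62 at 96 hpf, against -3.77, -3.66, -3.61 and -3.66 at 48 hpf, and its second probe gave a change of 0.46. On the 48 hpf arrays of replicates 1 to 3 miR-724 lay below the lowest signal of any detected probe (-3.01, -2.74 and -2.70). Its direction thus follows in part from the filter.

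There were 14 miRNAs that appeared, being below background on all 4 arrays at 48 hpf and detected on at least 3 at 96 hpf, and 12 of them were also called by the fit. They were selected for that pattern and lay at or near the floor at 48 hpf. Their calls and adjusted p-values are therefore no separate support for a rise. None vanished, that is, 0 were detected on at least 3 arrays at 48 hpf and on 0 at 96 hpf. The lowest log2 signal of a detected probe was -3.01, -2.74, -2.70 and -3.95 on the 48 hpf arrays of replicates 1 to 4. At 96 hpf it was -3.79, -3.95, -3.95 and -3.95. A miRNA detected on 3 arrays at 48 hpf thus lay above the 96 hpf limits on most of them, so few could vanish by this rule. Of the 14, 12 were detected on all 4 arrays at 96 hpf. The rule itself requires all 14 to be below background on the 48 hpf array of replicate 4. That array was brighter than the 96 hpf arrays of replicates 1 and 2. Without the 48 hpf array of replicate 4 the count of appearing miRNAs was 31. A fold can only be given as a lower bound, against the lowest signal well above background on each 48 hpf array. By that bound miR-190b was at least 2.98-fold higher (adjusted p = 0.000150), with -0.93, -1.49, -1.04 and -2.65 at 96 hpf, against -3.95, -3.95, -3.93 and -3.95 at 48 hpf. Its 96 hpf array of replicate 4 lay below the others, and the 48 hpf arrays were at or just above the floor. The second probe of miR-190b gave a change of 0.37, and its call was lost under normexp (change 0.69, limma adjusted p = 0.372).

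miR-132, induced by neuronal activity, was at least 2.81-fold higher, with -1.55, -1.69, -1.74 and -1.46 at 96 hpf, against -3.94, -3.93, -3.95 and -3.95 at 48 hpf. miR-726 was at least 1.78-fold higher and miR-135a at least 1.41-fold. The calls of miR-132 and miR-726 were lost under normexp (changes 0.70 and 0.29, limma adjusted p = 0.330 and 0.711). The second probe of miR-726 gave a change of 0.38. The chondrocyte miRNAs miR-455 and miR-455b were at least 1.16-fold and 1.09-fold higher. Under normexp the fitted changes of miR-135a, miR-455 and miR-455b turned to -0.13, -0.47 and -0.48. For let-7e, let-7i, miR-145, miR-212 and miR-459* the bound was under 1, so no fold is given, and miR-27d and miR-202 were not called. In vehicle embryos 18 miRNAs appeared by the same rule, 10 of them shared with the VPA embryos, and 3 vanished; the difference between these counts was not tested.

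Clusters were formed from miRNAs whose probes lie within 10 kb on 1 strand of danRer6. Of 106 tested miRNAs with a position, 55 lay in 21 such clusters, and in 18 clusters every member had a change of the same sign. No cluster held both a higher and a lower call. The clusters of miR-10a, miR-10d, miR-126, miR-140, miR-203b and miR-210 hold only the 2 arms of 1 hairpin. Each of these has 1 sign and is counted again among the pairs of arms below. Many clusters hold only 2 members, which can share a sign by chance, and no chance rate was worked out. On chromosome 14, miR-363, miR-19c, miR-20b and miR-18c lay between 32739356 and 32740011 on the minus strand and had changes of -1.17, -0.98, -1.23 and -1.20. On chromosome 8, miR-17a*, miR-18a, miR-19a, miR-20a and miR-19b had changes between -1.09 and -0.78. The miR-183, miR-96, miR-182 and miR-182* cluster had changes of 1.31, 1.53, 1.69 and 0.90. miR-429b, miR-141 and miR-200c on chromosome 6 were all higher, whereas miR-200b, miR-200a and miR-429 on chromosome 23, of the same seed families, had differences of 0.02, -0.07 and -0.02 and were not called.

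Both arms of 14 hairpins were tested, and 11 pairs had the same sign, with a median difference between arms of 0.34. The pairs that differed most were miR-2188*, with a change of -1.16 against 0.08 (not called) for miR-2188, and miR-182, with 1.69 against 0.90 for miR-182*. miR-133a* was lower (-0.71) while miR-133a, at -0.17, was not called.

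**Figure D4:**
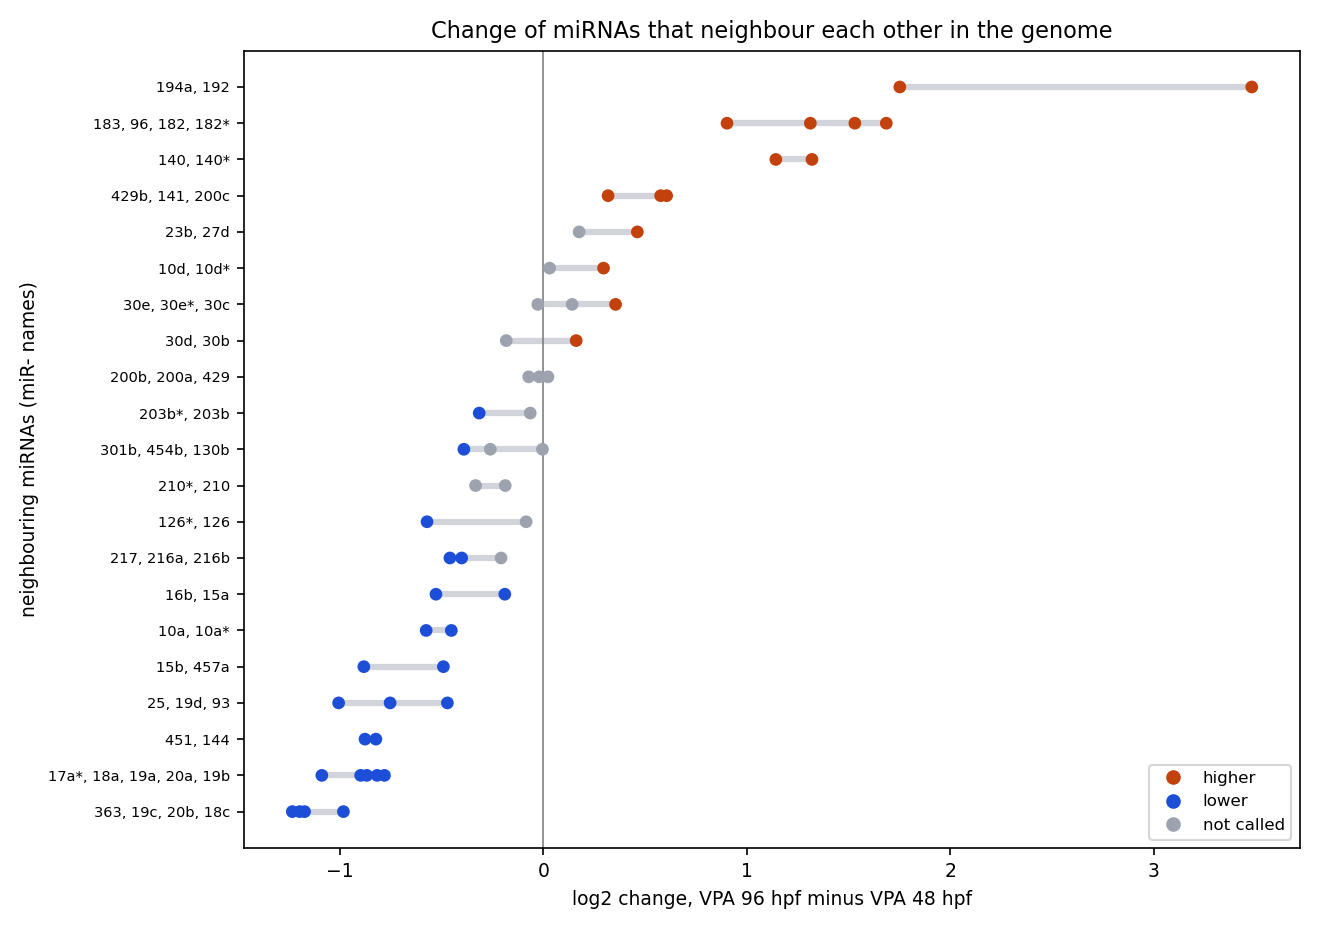
Each row is a group of neighbouring miRNAs on 1 strand of danRer6, with points for the log2 change of each member between 96 and 48 hpf in VPA embryos, coloured by call. The miR-363, miR-19c, miR-20b and miR-18c group lies between -1.23 and -0.98, and miR-194a and miR-192 at 1.75 and 3.48.

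The last comparison asked where the change with age in VPA embryos differed from that in vehicle embryos. Its test is a difference of differences over all 16 arrays, in which a shift shared by all arrays of a slide cancels. The direction under VPA was that in vehicle for 69 of the 71 higher and 55 of the 57 lower miRNAs, the exceptions being miR-10d*, miR-124, miR-153b and miR-21. The change itself differed for 23 of 178 miRNAs tested, or 12.9%, with 7 more positive under VPA and 16 more negative. That balance turned with quantile normalization, to 12 more positive and 5 more negative, and with no floor, to 12 and 6, and with the total signal it was 8 and 7. Without the 96 hpf VPA array of replicate 4, 44 differed, with 20 more positive and 24 more negative, and only 2 differed under normexp.

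The rise of miR-182 and miR-182*, arms of 1 hairpin of the miR-183 cluster, was larger under VPA. miR-182 changed by 1.69 in VPA embryos and by 0.83 in vehicle embryos, a difference of 0.86 ± 0.10 (adjusted p = 5.77e-05). At 96 hpf it read 1.87, 1.80, 1.71 and 1.65 on VPA arrays and 1.66, 1.68, 1.57 and 1.48 on vehicle arrays, which overlap. At 48 hpf it read 0.19, 0.16, -0.07 and 0.00 on VPA arrays and 0.91, 0.78, 0.72 and 0.68 on vehicle arrays, and every VPA array lay below every vehicle array. miR-182* differed by 0.75 ± 0.13 (adjusted p = 0.000896), but by -0.44 under normexp, which did not pass, and it was detected on 1 of 4 VPA arrays at 48 hpf. The cluster's miR-96 and miR-183 had differences of 0.46 ± 0.16 (adjusted p = 0.0697) and 0.67 ± 0.36 (adjusted p = 0.227), which did not pass. miR-210, which is induced by hypoxia, had -0.33 under VPA and -1.03 in vehicle, a difference of 0.70 ± 0.17 (adjusted p = 0.00959). Its change under VPA alone did not pass (adjusted p = 0.0691), but passed in the fit of all 16 arrays, with the mean of all probes, and without the 48 hpf array of replicate 1 (-0.43) or the 96 hpf array of replicate 4 (-0.45). miR-451 changed by -0.82 under VPA and by -1.28 in vehicle, a difference of 0.45 ± 0.11 (adjusted p = 0.00935).

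Among the more negative changes, miR-21 fell by 0.66 under VPA and had 0.01 in vehicle, a difference of -0.67 ± 0.12 (adjusted p = 0.00102). It read 1.22, 0.997, 0.91 and 0.93 on 96 hpf VPA arrays and 1.72, 1.45, 1.59 and 1.46 on 96 hpf vehicle arrays. miR-29b differed by -1.09 ± 0.15 (adjusted p = 0.000113) and miR-29a by -0.54 ± 0.11. Differences of miR-212 (-1.04 ± 0.07), miR-194a (-0.83 ± 0.11) and miR-132 (-0.68 ± 0.09) turned positive when no floor was set, and their VPA arrays at 48 hpf were at or near the floor. Without a floor they were 1.12, 1.82 and 1.81, with probe means that are not positive left out. There miR-212 and miR-132 passed in the opposite direction (limma adjusted p = 0.0460 and 0.0169). With the total signal the difference of miR-132 was 0.06. The direction of these differences thus depends on the floor. miR-192 and miR-122 changed by 3.48 and 2.93 under VPA and by 3.67 and 2.76 in vehicle, and neither difference passed.

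**Figure D5:**
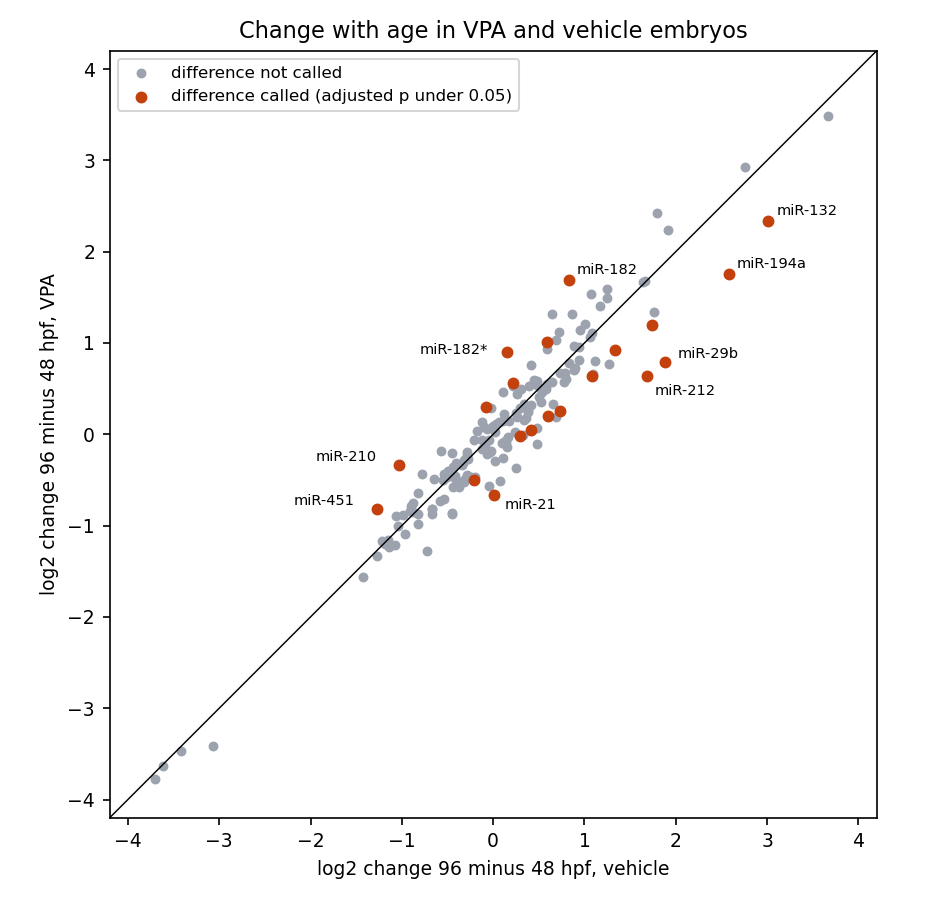
Each point is 1 tested miRNA, with the log2 change between 96 and 48 hpf in VPA embryos on the y axis and in vehicle embryos on the x axis, and the line marks equal change. Orange points are miRNAs whose changes differed (adjusted p under 0.05), such as miR-182, above the line with a difference of 0.86, and miR-212, below it with -1.04. With no floor the miR-212 difference was 1.12.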

How the data were processed

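Total RNA of whole embryos was labelled with Cy3 and hybridized by the authors to 1-colour Agilent miRNA arrays. The deposited scanner files hold the intensity of each spot, with the background subtracted and no scaling across arrays. Per the file headers it was extracted with Agilent Feature Extraction, version 9.5.3.1, and the submitters' processing notes give version 9.5. Flags for spots well above background, saturated or outlying are deposited as numbers of 0 or 1, per the file headers. The values deposited per sample repeat that intensity (100% of them within 1%), and serve as the unscaled alternative.

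Intensity was divided by the array's 75th percentile over 10360 non-control spots. Outlier spots (3.32% to 8.07% per array) were then left out, values floored at 0.0648 (log2 -3.95), which is the lowest scaled signal flagged as well above background, taken as the median of all arrays, and log2 values averaged per probe. The brightest probe stood for a miRNA. Arrays were fitted with limma 3.58.1 (lmFit, eBayes) under R 4.3.3 (files read by data.table, version 1.17.8), two-sided, with Benjamini-Hochberg adjustment over 172 miRNAs, or 178 for the difference between VPA and vehicle development. The fit was tested on simulated data, and the plots use Python 3.11.15 and matplotlib 3.10.9.

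The named miRNAs were the 12 largest rises and 12 largest falls among called miRNAs detected at both ages, up to 12 that appeared, from every list up to 4 members that changed most, and up to 6 in each direction of the difference. Further list members and members of clusters or hairpins were named beside them. The members, the 19 lists and this rule were chosen with earlier results of these data known. Alternatives were other background corrections, scalings, floors, filters and probe summaries, array brightness as a covariate, all 16 arrays in 1 fit, a replicate block and leaving out arrays.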

Additional observations from a re-analysis of the deposited data

Results flagged for a closer look

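In groups of 4 arrays, the highest or lowest array of a named miRNA stood apart from the others by Dixon's test at 95% in 17 of 171 tests. Chance alone gives about 1 in 20 for independent values without ties. Tests on 1 array are not independent, and arrays tied at the floor, as for miR-135a and miR-190b at 48 hpf, make a flag automatic. The 17 flags therefore do not measure an excess over chance. Of the 17, 7 were the 96 hpf array of replicate 4, the brightest of all and the one with 189 saturated spots. On it log2 scaled intensity was high for miR-133c (-0.72, the others at most -1.41), miR-138 (0.13, the others at most -0.46), miR-146a (-2.66, the others at most -3.43), miR-181a* (-0.49, the others at most -0.96), miR-210 (0.43, the others at most -0.01) and miR-34 (-0.0072, the others at most -0.25), and low for miR-142a-3p (-3.31, the others at least -2.46). The 96 hpf array of replicate 2 was low for miR-430c (-2.11).

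At 48 hpf the bright array of replicate 4 stood low for miR-125c (0.37), miR-181c (0.77) and miR-92a (2.09) and high for miR-15b (1.06). The array of replicate 3 was low for let-7d (-2.38) and lay just above the floor, where the other arrays were at or nearer to it, for miR-135a (-3.94), miR-190b (-3.93) and miR-455b (-3.88). The array of replicate 2 was high for miR-129* (-1.18). What sets these arrays apart was not tested.

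The change between 96 and 48 hpf differed between VPA and vehicle embryos, by the test of the difference itself, for 16 named miRNAs. It was more positive under VPA for miR-182 (0.86), miR-182* (0.75), miR-210 (0.70), miR-451 (0.45), miR-455 (0.43) and miR-10d* (0.38). It was more negative for miR-29b (-1.09), miR-212 (-1.04), miR-194a (-0.83), miR-132 (-0.68), miR-21 (-0.67), miR-29a (-0.54), let-7i (-0.47), miR-145 (-0.45), miR-459* (-0.41) and miR-221 (-0.30). Of these, miR-455, let-7i, miR-145, miR-194a, miR-212 and miR-459* were detected on 0 of 4 arrays of either treatment at 48 hpf. On VPA arrays at 48 hpf miR-132 was also detected on 0 of 4, and miR-182*, miR-10d*, miR-29a and miR-29b on 1 of 4. With no floor the differences of miR-132 and miR-212 passed in the opposite direction, at 1.81 and 1.12.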

How the results depend on the processing

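The 128 called changes became 119 to 139 when 1 array was left out, 140 without replicate 4 of both ages, 133 without replicates 3 and 4 at 96 hpf and 110 with array brightness as a covariate (these last 3 were chosen after seeing the data), of which 109 to 128 were shared with the same sign across these fits. They became 113 with quantile normalization, 117 with the percentile over probes detected on all arrays, 118 with the software's total signal per miRNA, 124 with no filter, 125 with the mean of all probes, 128 with no floor or with a trended robust eBayes, 138 with all 16 arrays, 94 of 129 when detection on every array was asked, 80 without scaling and 53 with normexp. The higher share of calls, 55.5%, was 69.5% with the total signal, 95% without scaling, 43.6% with detection on every array and 45.3% with normexp. The median of all miRNAs moved by 0.16, 0.23, -0.26 and 1.48 with the detected-probe percentile, the total signal, normexp and no scaling. The 14 appearing miRNAs were 12 to 31 when 1 array was left out, 31 being without the 48 hpf array of replicate 4, and 17 if 1 spot was enough. The 23 differences from vehicle development were 20 to 44 when 1 array was left out, 44 being without the 96 hpf VPA array of replicate 4, 15 with the total signal, 7 with detection on every array, 2 with normexp and 0 in limma without scaling, where 1 had an unadjusted p under 0.05. Replicate numbers did not pair the arrays (residual r of same-numbered arrays 0.08, 0.53, 0.17 and 0.18, best for its own number in 1 of 4). The replicate block gave 129 calls and 22 differences, and miR-30b lost its call. Of 101 single changes and differences of named miRNAs, the call was lost without a change of sign for 33 with normexp, 22 without scaling, 12 with the total signal, 9 with quantile normalization, at most 3 under every other scaling, filter or left-out array, and 8 of 85 with array brightness. With normexp the rises that lost their call were let-7d, miR-125a, miR-132, miR-138, miR-141, miR-183, miR-190b, miR-194a, miR-23a, miR-24, miR-30b, miR-34 and miR-726. The falls were miR-10c, miR-133b, miR-203a, miR-205, miR-21, miR-217, miR-221, miR-451 and miR-457a. The differences were let-7i, miR-132, miR-145, miR-194a, miR-21, miR-212, miR-221, miR-29a, miR-29b, miR-451 and miR-459*. Changes that turned sign without scaling were miR-10a* 0.62, miR-10c 1.10, miR-126* 1.03, miR-133a* 0.89, miR-133b 1.03, miR-133c 0.39, miR-144 0.69, miR-15a 1.07, miR-15b 0.72, miR-16a 0.78, miR-181a* 1.17, miR-18c 0.40, miR-196a 1.11, miR-196b 0.66, miR-203a 1.10, miR-205 0.87, miR-20b 0.37, miR-21 0.94, miR-217 1.14, miR-2188* 0.37, miR-219 0.32, miR-221 1.10, miR-222 0.74, miR-30a 0.0406, miR-363 0.43, miR-451 0.78, miR-457a 1.11 and miR-92a 0.27, and the difference of miR-221 0.37. With normexp they were let-7e -0.63, let-7i -0.78, miR-10d* -0.96, miR-135a -0.13, miR-145 -0.70, miR-146a -0.74, miR-182* -0.36, miR-212 -0.46, miR-27b -0.40, miR-29a -0.0704, miR-29b -0.63, miR-455 -0.47, miR-455b -0.48 and miR-459* -0.68, with differences of miR-10d* -0.98, miR-182* -0.44 and miR-455 -0.91. With quantile normalization miR-133b 0.0528 turned, with no floor the differences of let-7i 0.80, miR-132 1.81, miR-194a 1.82, miR-212 1.12 and miR-459* 0.11, and with the total signal that of miR-132 0.0575. Except for the miRNAs that the scaling or the floor moves by construction, the cause was not tested. Signal over background limits the miRNAs near the floor, of which 52 were not detected on any VPA array.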
